A study of Mus musculus with 24 samples.

Results

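Toll-like receptors are the germline-encoded sensors with which macrophages recognise microbial products and material released from damaged cells. The 10 genes described here are 3 receptors of the cell surface (Tlr1, Tlr2 and Tlr4), 4 receptors of the endosome (Tlr7, Tlr8, Tlr9 and Tlr13), the co-receptors Cd14 and Ly96, and the adaptor Myd88. They were taken by gene symbol from both deposited count tables and joined by Ensembl gene ID, and all 10 were found among the 49022 genes that both tables hold. All 10 passed the filter on low counts in each of the 9 comparisons.

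Polyadenylated RNA was sequenced from macrophages sorted out of lungs of wild-type C57BL/6J mice and of Spp1-EGFP knock-in mice, in which EGFP reports on Spp1 (osteopontin). Instillation into the trachea delivered PBS or bleomycin (3 µg/g), an agent whose injury to the lung is followed by fibrosis. The gate of CD11b+ SiglecF- cells stands for interstitial macrophages (IMs), and that of CD11b- SiglecF+ cells for alveolar macrophages (AMs). The 24 libraries form 8 groups of 3. The IM groups were wild-type IMs at day 7 after bleomycin, wild-type IMs at day 7 after PBS, and, from knock-in mice after bleomycin, EGFP+ IMs at day 14, EGFP+ IMs at day 7 and EGFP- IMs at day 7. The AM groups were all EGFP+ cells of knock-in mice, with 1 PBS group (day 7) and 2 bleomycin groups (day 14 and day 30). The age and number of mice, and whether animals were pooled, are not given in the sources used here, so p-values measure the spread between these libraries, which may be technical.

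On the cell surface, the TLR2 protein pairs with TLR1 to bind triacylated bacterial lipopeptides, and TLR4 binds lipopolysaccharide together with its partner MD-2, the product of Ly96. CD14 hands lipopolysaccharide and other ligands to these receptors. In the endosome TLR9 binds unmethylated CpG DNA, TLR7 binds single-stranded RNA, and mouse TLR13 binds a bacterial ribosomal RNA motif. TLR8 senses RNA breakdown products in human cells, and its role in mice is less settled. MYD88 is the adaptor that all of these receptors use to reach IRAK kinases and NF-kappaB.

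The members lie on GRCm38 at chr5:64924679-64933563 (Tlr1, minus strand), chr3:83836272-83841767 (Tlr2, minus), chr4:66827584-66930284 (Tlr4, plus), chr1:16688051-16709611 (Ly96, plus), chr9:106222598-106226883 (Tlr9, plus) and chr9:119335934-119341411 (Myd88, minus). The gene model of Cd14 is 69 bases longer in the table that holds the day 14 and day 30 libraries than in the other. Tlr7 and Tlr8 are neighbours on the X chromosome, at chrX:167304929-167330558 and chrX:167242696-167264329 (both minus), and Tlr13 is also X-linked, at chrX:106143204-106160493 (plus). Tlr1 shares 7.89% of its 100-base windows with its neighbour and paralog Tlr6. Myd88 overlaps Acaa1a on the opposite strand over 4.69% of its windows, and the strand setting of the counting is not given in the sources used here, so the 2 genes' reads cannot be fully told apart. Acaa1a averaged 101 to 245 CPM over the 8 groups. Myd88 also overlaps Slc22a14, which had a count of 0 in every library.

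The start-site regions below belong to 2 members with higher RNA in IMs (Tlr1 and Tlr9) and 2 with higher RNA in PBS AMs (Tlr2 and Tlr8). Each runs from 250 bases before to 50 after the annotated start, from RefSeq on GRCm38.p6, read 5′ to 3′ on the gene's strand, and 6 of the 10 members had an entry. Capitals mark matches, on either strand, to 4 motifs of factors that act in macrophages. These were GAGGAAG (an ETS core of the kind bound by PU.1), GGGANTTCC (kappaB), GAAANNGAA (IRF) and TGANTCA (AP-1).
Tlr1, chr5:64933509-64933808: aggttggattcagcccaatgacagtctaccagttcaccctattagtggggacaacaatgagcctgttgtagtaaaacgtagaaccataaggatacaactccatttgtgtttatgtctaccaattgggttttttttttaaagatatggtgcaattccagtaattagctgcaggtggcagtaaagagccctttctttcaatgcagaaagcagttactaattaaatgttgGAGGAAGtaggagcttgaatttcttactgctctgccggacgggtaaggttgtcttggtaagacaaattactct
Tlr9, chr9:106222348-106222647: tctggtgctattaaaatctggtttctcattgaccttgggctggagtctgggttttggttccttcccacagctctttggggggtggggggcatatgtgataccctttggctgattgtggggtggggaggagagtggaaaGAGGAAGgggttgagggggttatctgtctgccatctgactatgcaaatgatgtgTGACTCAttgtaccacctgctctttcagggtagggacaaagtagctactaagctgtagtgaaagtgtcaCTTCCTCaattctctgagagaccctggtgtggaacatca
Tlr2, chr3:83841559-83841858: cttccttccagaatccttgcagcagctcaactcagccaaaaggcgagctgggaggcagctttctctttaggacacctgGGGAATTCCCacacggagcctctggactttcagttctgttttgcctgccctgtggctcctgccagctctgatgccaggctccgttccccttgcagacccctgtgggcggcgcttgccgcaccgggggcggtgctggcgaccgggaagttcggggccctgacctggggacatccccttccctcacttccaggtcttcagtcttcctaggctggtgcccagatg
Tlr8, chrX:167264280-167264579: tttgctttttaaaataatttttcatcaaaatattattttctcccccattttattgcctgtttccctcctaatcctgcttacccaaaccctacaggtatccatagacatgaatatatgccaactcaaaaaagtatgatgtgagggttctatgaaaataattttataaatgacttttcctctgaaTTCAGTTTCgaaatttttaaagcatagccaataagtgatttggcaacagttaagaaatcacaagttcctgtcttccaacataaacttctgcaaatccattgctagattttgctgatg

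The Tlr1 window held 1 ETS core, at base -23 from the start. The Tlr9 window held ETS cores at bases -112 and 12 and an AP-1 motif at base -58. The Tlr2 window held a kappaB palindrome, which matched on both strands at bases -172 and -171 and so counts as 1 overlapping place. The Tlr8 window held 1 IRF motif, at base -67. Of 32851 windows of the same length, 13.6% held the ETS core, 1.68% the kappaB motif, 8.56% the IRF motif and 7.81% the AP-1 motif. A match describes letters in a window and is not evidence of binding.

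Libraries held 13450053 to 24580620 counts. Levels are CPM, a gene's counts set to a common library total, scaled by TMM factors over all 24 libraries, and values follow the order of the replicate numbers. Calls are those of edgeR's quasi-likelihood test with an adjusted p (Benjamini-Hochberg, all genes tested) under 0.05. Whether the libraries of 2 groups overlap is given as a description. The share of all genes without overlap is not given here, so a lack of overlap adds no support to a call. The gates differed in their own sort markers. Itgam, which encodes CD11b, averaged 208 to 372 CPM over the IM groups and 7.85 to 26.4 CPM over the AM groups, and Siglecf averaged 8.73 to 25.3 CPM over the IM groups and 131 to 388 CPM over the AM groups. The EGFP+ AM groups were not alike in Spp1 RNA, at 189 ± 9.24 CPM after PBS, 5143 ± 1517 at day 14 and 6905 ± 129 at day 30. EGFP- IMs at day 7, with 523 ± 68.6 CPM, were above the PBS AMs. All 7 macrophage markers were detected in every group. So were the listed markers of other cells, apart from Ly6g and Camp in AMs at day 14, so detection does not show how pure a gate was. The summed macrophage markers were lowest in EGFP- IMs, at 6994 to 7328 CPM, beside 4536 to 6203 CPM for the summed neutrophil markers. Without TMM factors, the log2 values would move by -0.23 in day 14 against day 7 IMs, by -0.19 in day 14 AMs and by -0.11 in day 30 AMs against PBS AMs, and by -0.10 in IMs against AMs at day 14. Day 14 EGFP+ IM replicate 1 stood apart: the chi-square per degree of freedom of its counts against replicates 2 and 3 was 60.89 and 116.88, against 2.89 to 24.02 for all other replicate pairs.

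RNA of sex-linked genes also differed between groups, and 3 of the members are X-linked. Xist averaged 676 ± 47.1 CPM in EGFP+ IMs and 802 ± 91.0 CPM in EGFP- IMs at day 7 (SD, n = 3 each), where the Y-linked gene Ddx3y averaged 3.74 ± 5.20 and 0.205 ± 0.0802 CPM. PBS AMs held both, with Xist at 328 ± 28.6 CPM and Ddx3y at 74.8 ± 1.01 CPM. In the other 5 groups Xist averaged 0 to 0.201 CPM and Ddx3y 80.8 to 255 CPM. Sex-linked RNA therefore moved with the group in day 14 against day 7 IMs, in AMs after bleomycin against PBS, and in IMs against AMs after PBS. Its part in those results was not tested. In the other comparisons both groups had high Xist or both had high Ddx3y, although levels could differ: Ddx3y averaged 138 ± 2.67 CPM in wild-type IMs after bleomycin and 255 ± 9.88 CPM after PBS, and 80.8 ± 6.39 CPM in AMs at day 30 and 117 ± 10.7 CPM at day 14. At day 14 it averaged 115 ± 4.93 CPM in IMs and 117 ± 10.7 CPM in AMs.

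**Figure D1:**
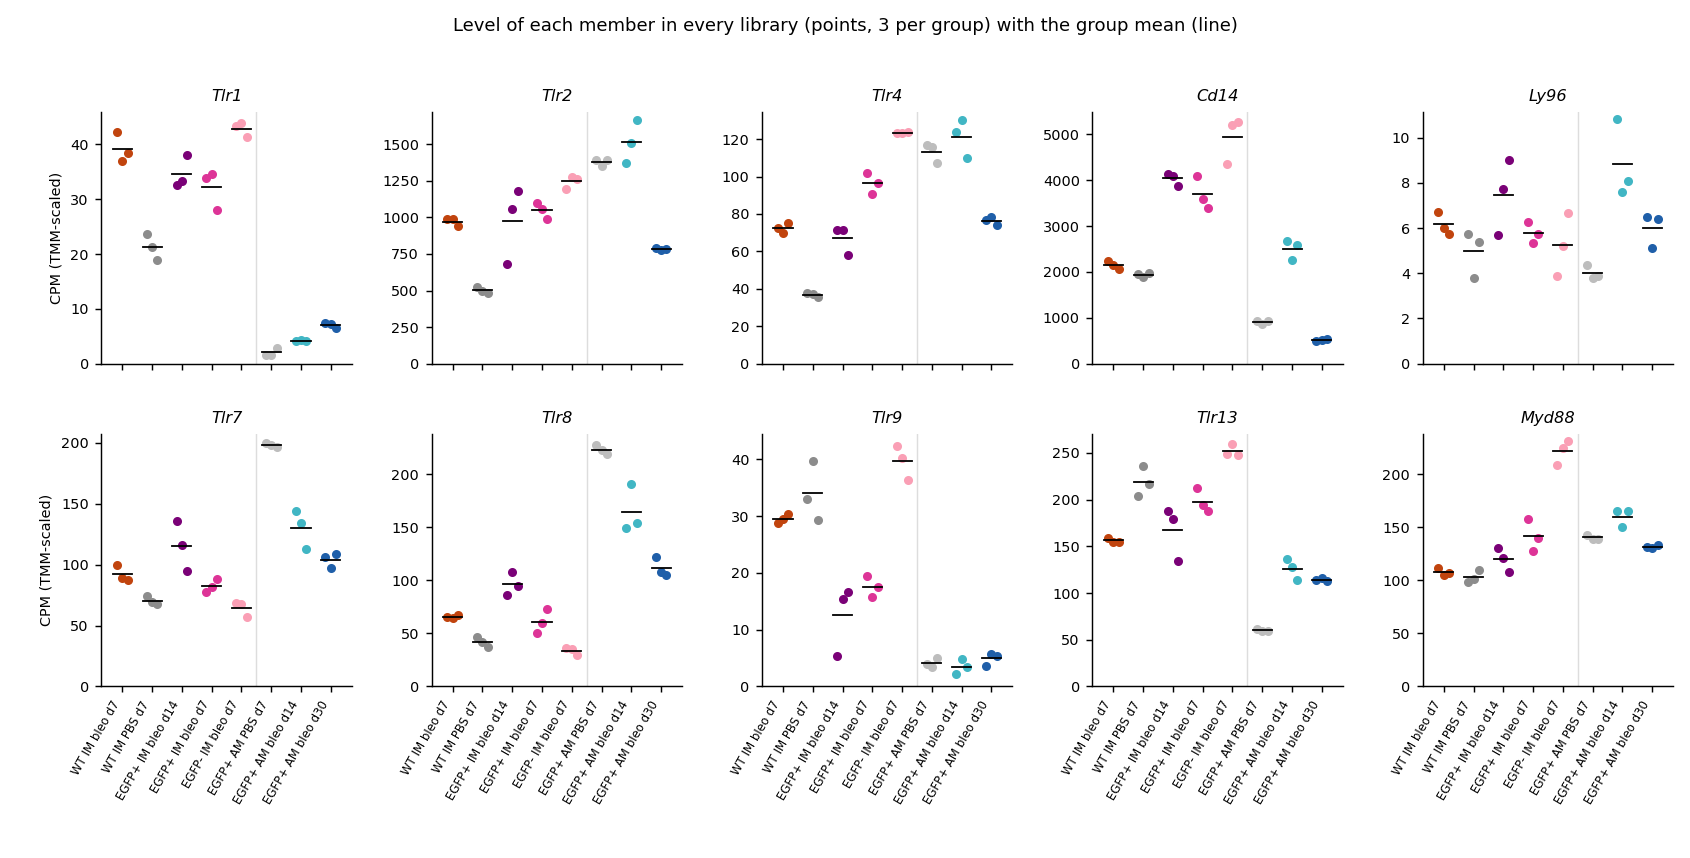
Level of each of the 10 genes in every library, in TMM-scaled CPM on a linear axis from 0, with 3 points per group and a line at the group mean. IM groups are left of the grey line and AM groups right of it. Tlr1 and Tlr9 lie below 10 CPM in every AM library, and Cd14 is highest in the knock-in IMs and lowest in AMs at day 30.

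Per kilobase of exon, Cd14 had the highest RNA level of the 10 in every group and Tlr2 the next. In wild-type IMs, Cd14 had 1244 ± 56.0 CPM per kb after bleomycin and 1121 ± 32.4 CPM per kb after PBS (SD, n = 3 each), and Tlr2 had 322 ± 8.98 and 166 ± 7.26 CPM per kb after the same treatments. In AMs, Cd14 had 522 ± 24.3 CPM per kb after PBS, 1449 ± 125 at day 14 and 299 ± 9.55 at day 30. Ly96 was among the lowest, at 3.93 to 8.64 CPM per kb as group means. In bulk RNA a lower level can come from fewer cells of a type or from less RNA per cell, and these cannot be told apart.

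The order below Cd14 and Tlr2 differed by gate. In wild-type IMs after PBS, Tlr13 came next at 50.9 ± 3.80 CPM per kb, followed by Myd88 at 40.0 ± 2.32, Tlr7 at 17.2 ± 0.823 and Tlr8 at 11.8 ± 1.34 CPM per kb. Tlr9 at 9.80 ± 1.5 overlapped Tlr8 there, and Tlr1 at 6.36 ± 0.683 overlapped Tlr4 at 6.64 ± 0.192 CPM per kb. In PBS AMs the order was Tlr8 at 62.3 ± 1.21, Myd88 at 54.5 ± 0.981, Tlr7 at 48.6 ± 0.456, Tlr4 at 20.4 ± 0.899 and Tlr13 at 13.9 ± 0.244 CPM per kb, with no overlap between neighbours. Tlr9 at 1.18 ± 0.224 and Tlr1 at 0.609 ± 0.202 CPM per kb came last. In day 14 EGFP+ IMs, Myd88, Tlr13, Tlr7 and Tlr8 each overlapped the next in order, from 46.4 ± 4.39 to 26.8 ± 3.03 CPM per kb.

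The gates were compared after PBS to ask how uninjured IMs and AMs differ, although the IMs were wild-type cells with no EGFP sort and the AMs EGFP+ knock-in cells. Tlr1, Tlr9, Tlr13 and Cd14 were higher in IMs, and Tlr2, Tlr4, Tlr7, Tlr8 and Myd88 were lower. This comparison called 39.2% of 15828 genes higher and 39.7% lower. The members' median log2 difference was -0.11, against -0.01 over all genes tested. The lipopeptide partner receptor Tlr1 had 23.6, 21.3 and 19.0 CPM in PBS IMs, against 1.66, 1.64 and 2.82 CPM in PBS AMs. The CpG DNA receptor Tlr9 had 33.1, 39.7 and 29.4 CPM in PBS IMs, against 3.87, 3.46 and 4.97 CPM in PBS AMs. Neither gene's groups overlapped, and both were higher in IMs by log2 3.38 ± 0.17 (SE, 10.4-fold, edgeR adjusted p = 2.7e-12) for Tlr1 and 3.04 ± 0.14 (8.22-fold, edgeR adjusted p = 2.0e-12) for Tlr9.

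The RNA sensors of the X chromosome divided by gate. Tlr8 had 46.9, 42.2 and 37.3 CPM in PBS IMs, against 228, 223 and 219 CPM in PBS AMs, and Tlr7 had 74.1, 69.3 and 67.6 CPM in PBS IMs, against 200, 198 and 197 CPM in PBS AMs. Both were lower in IMs with no overlap, at log2 -2.44 ± 0.07 for Tlr8 (edgeR adjusted p = 3.9e-16) and -1.53 ± 0.06 for Tlr7 (adjusted p = 8.9e-15). Tlr13 went the other way, with 204, 236 and 217 CPM in PBS IMs, against 61.2, 59.3 and 59.5 CPM in PBS AMs (log2 1.83 ± 0.06, adjusted p = 2.7e-15). Among the surface receptors, Tlr2 averaged 501 ± 21.9 CPM in PBS IMs and 1380 ± 23.0 CPM in PBS AMs (log2 -1.49 ± 0.05, adjusted p = 2.9e-15), and Tlr4 averaged 36.9 ± 1.07 and 113 ± 5.0 CPM (log2 -1.65 ± 0.06, adjusted p = 1.2e-14). Cd14 was higher in IMs at 1941 ± 56.1 CPM, against 905 ± 42.2 CPM in AMs (log2 1.07 ± 0.05, adjusted p = 4.9e-13), and Ly96 was not called (log2 0.27 ± 0.19, adjusted p = 0.206). Myd88 was lower in IMs by less than any other called member, at log2 -0.48 ± 0.06 (adjusted p = 3.0e-07).

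Markers of other cells differed between the same libraries. Of 7 macrophage markers, 1, Csf1r, was higher in PBS IMs and 6 were lower. All 8 alveolar macrophage markers were lower and all 6 interstitial macrophage markers higher. All 10 neutrophil markers, 7 of 8 B cell markers and all 8 nonclassical monocyte markers were higher in PBS IMs. So were all 6 classical monocyte, all 6 tested T and NK cell and all 7 endothelium and fibroblast markers. Of 8 dendritic cell markers, 7 were higher and 1 lower. The summed neutrophil markers ran from 7089 to 8517 CPM in PBS IMs, against 124 to 193 CPM in PBS AMs, and the B cell marker Cd79a averaged 163 ± 13.9 CPM in PBS IMs and 31.6 ± 4.41 CPM in PBS AMs. Sftpc, made by alveolar epithelium, averaged 1302 ± 106 CPM in PBS IMs and 53.0 ± 4.23 CPM in PBS AMs. Of 6 lung epithelium markers, 4 including Sftpc were higher in PBS IMs and 2, Epcam and Cdh1, were lower. Of 9 dissociation stress genes, 8 were higher in PBS IMs and 1 lower, with sums of 5181 to 5511 CPM in PBS IMs, against 3975 to 4196 CPM in PBS AMs. The part of other cells and of these genes in the members' differences was not tested.

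The gates were also compared at day 14 after bleomycin, where both were EGFP+ knock-in cells in the same count table. Tlr1, Tlr9 and Cd14 were higher in IMs, and Tlr4, Tlr8 and Myd88 were lower, in a comparison that called 10.8% of 13460 genes higher and 10.2% lower (1454 and 1378 genes, against 1110 and 1785 without TMM factors). The members' median log2 difference was -0.19, against 0.01 over all genes tested. Tlr1 had 32.6, 33.3 and 38.1 CPM in EGFP+ IMs, against 4.12, 4.34 and 4.12 CPM in EGFP+ AMs, an 8.34-fold difference (log2 3.06 ± 0.16, edgeR adjusted p = 9.6e-07). Every IM library was above every AM library, by far more than the spread within a gate.

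Tlr9 had 5.44, 15.4 and 16.7 CPM in day 14 IMs, against 2.1, 4.88 and 3.48 CPM in day 14 AMs (log2 1.86 ± 0.46, edgeR adjusted p = 0.0237). The groups did not overlap, but IM replicate 1 was close to the highest AM library. Tlr8 had 86.1, 108 and 94.5 CPM in day 14 IMs, against 149, 191 and 154 CPM in day 14 AMs (log2 -0.76 ± 0.15, adjusted p = 0.00402), and Tlr4 averaged 66.9 ± 7.72 CPM in IMs and 121 ± 10.4 CPM in AMs (log2 -0.85 ± 0.13, adjusted p = 0.00122). Cd14 averaged 4037 ± 135 CPM in IMs and 2510 ± 217 CPM in AMs (log2 0.70 ± 0.16, adjusted p = 0.0124), and Myd88 was at log2 -0.41 ± 0.12 (adjusted p = 0.0394). Tlr2 (log2 -0.62 ± 0.21, adjusted p = 0.0637), Tlr13 (0.42 ± 0.15, adjusted p = 0.0752), Tlr7 (-0.15 ± 0.16, adjusted p = 0.549) and Ly96 (-0.22 ± 0.24, adjusted p = 0.561) were not called. Tlr2 and Tlr13 did pass the threshold under other settings. Tlr2 was called lower with the DESeq2 Wald test (adjusted p = 0.0143), with no filter (0.00367), with all 24 libraries in one fit (9.8e-05), without TMM factors (0.0119) and without IM replicate 3 (0.0215). Tlr13 was called higher with no filter (adjusted p = 0.0482), with the fit over all 24 libraries (0.00101), and when IM replicate 3 was left out (0.014). The calls of Cd14, Tlr9 and Myd88 were each lost when some libraries were left out: the adjusted p of Cd14 was 0.0598 without IM replicate 2, 0.074 without AM replicate 2 and 0.0575 without AM replicate 3. That of Tlr9 was 0.0719 and 0.0553 without IM replicates 2 and 3, and 0.0759 and 0.0863 without AM replicates 1 and 3. That of Myd88 was 0.123 and 0.1 without IM replicates 2 and 3, and 0.103, 0.0671 and 0.134 without AM replicates 1, 2 and 3.

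Of 7 macrophage markers, 3 were higher in day 14 IMs and 1 lower. Markers of other cells differed between these libraries too. Of those tested, 4 of 7 neutrophil, 2 of 7 B cell, 3 of 6 classical monocyte and 4 of 9 dissociation stress markers were higher in day 14 IMs and none was lower, while 3 of 8 nonclassical monocyte markers were lower. The summed neutrophil markers ran from 142 to 245 CPM in day 14 IMs, against 95.7 to 119 CPM in day 14 AMs, and the summed stress genes from 4135 to 6206 CPM in IMs, against 3682 to 5003 CPM in AMs. Their part in the members' differences was not tested.

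Within wild-type IMs at day 7, bleomycin was compared with PBS to ask what injury does in this gate. The 3 surface receptors among the members were higher after bleomycin, by 1.87-fold to 2.0-fold. Tlr7, Tlr8 and Cd14 were higher by less, and Tlr13 was lower. Receptors outside the members did not all follow, as Tlr5 and Tlr6 were lower (values below). Here 35.6% of 15496 genes were called higher and 34.5% lower, so calls were common. The members' median log2 change was 0.38, against 0.00 over all genes tested. The lipopolysaccharide receptor Tlr4 had 72.5, 69.8 and 75.3 CPM after bleomycin, against 37.9, 37.0 and 35.8 CPM after PBS (log2 1.0 ± 0.06, edgeR adjusted p = 3.1e-12). Tlr2 had 987, 986 and 940 CPM after bleomycin, against 525, 497 and 482 CPM after PBS (log2 0.98 ± 0.05, adjusted p = 3.3e-14). Tlr1 had 42.2, 37.0 and 38.4 CPM after bleomycin, against 23.6, 21.3 and 19.0 CPM after PBS (log2 0.91 ± 0.09, adjusted p = 4.1e-09). In all 3 receptors every bleomycin library was above every PBS library.

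The endosomal receptors did not move together in these cells. Tlr8 had 65.8, 64.4 and 67.2 CPM after bleomycin, against 46.9, 42.2 and 37.3 CPM after PBS (log2 0.67 ± 0.07, edgeR adjusted p = 3.0e-08), and its neighbour Tlr7 averaged 92.3 ± 7.02 CPM after bleomycin and 70.3 ± 3.36 CPM after PBS (log2 0.42 ± 0.06, adjusted p = 3.9e-06). Tlr13 had 159, 155 and 155 CPM after bleomycin, against 204, 236 and 217 CPM after PBS, and fell by 0.46 on the log2 scale (SE 0.06, adjusted p = 1.4e-07). Tlr9 was not called, with 29.5 ± 0.770 CPM after bleomycin and 34.1 ± 5.22 CPM after PBS (adjusted p = 0.0868), and its groups overlapped. Without PBS replicate 3 it was called lower, at log2 -0.27 (adjusted p = 0.00908), which raises the members called lower to 2. Cd14 averaged 2154 ± 97.1 CPM after bleomycin and 1941 ± 56.1 CPM after PBS, a call (log2 0.18 ± 0.05, adjusted p = 0.00217) that was lost with all 24 libraries in one fit (adjusted p = 0.145). Ly96 (log2 0.34 ± 0.18, adjusted p = 0.0978) and Myd88 (0.10 ± 0.06, adjusted p = 0.138) were not called, but each was called higher when a PBS library was left out, Ly96 without replicate 1 (adjusted p = 0.0435) and Myd88 without replicate 3 (adjusted p = 0.0227). Myd88 was also called higher with no filter (adjusted p = 0.0274) and without TMM factors (adjusted p = 0.0335).

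The wild-type gate also changed in its markers. All 10 neutrophil, 8 B cell and 8 nonclassical monocyte markers were lower after bleomycin, while 6 of 7 macrophage markers and all 6 interstitial macrophage markers were higher. Some markers of other cells also rose. Of 6 classical monocyte markers, 4 were higher and 2 lower, and of 7 T and NK cell markers 5 were higher and none was lower. The summed neutrophil markers ran from 1457 to 1482 CPM after bleomycin, against 7089 to 8517 CPM after PBS, with Cxcr2 at 47.4 ± 3.83 and 104 ± 6.14 CPM in those groups. Treml4, of nonclassical monocytes, averaged 21.0 ± 2.39 CPM after bleomycin and 183 ± 11.3 CPM after PBS, and Siglech, of plasmacytoid dendritic cells, 5.82 ± 0.107 and 7.65 ± 0.339 CPM. Of 8 dendritic cell markers, 3 including Siglech were lower and 1, Flt3, was higher. Sftpc averaged 8.19 ± 1.05 CPM after bleomycin and 1302 ± 106 CPM after PBS. Of 6 lung epithelium markers, 4 including Sftpc were lower and 2, Epcam and Cdh1, were higher. Of 9 dissociation stress genes, 6 were higher and 3 lower, with sums of 7025 to 7275 CPM after bleomycin and 5181 to 5511 CPM after PBS. Their part in the members' changes was not tested.

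Of 39 other genes of the pathway tested in the same cells, 9 were called higher and 19 lower. The shares over all genes tested were 35.6% higher and 34.5% lower. Among other receptors, the double-stranded RNA receptor Tlr3 was higher, at 11 ± 0.711 CPM after bleomycin and 2.69 ± 1.04 CPM after PBS (log2 2.06 ± 0.20, edgeR adjusted p = 1.4e-08), and the flagellin receptor Tlr5 was lower, at 4.23 ± 0.346 and 13.5 ± 2.37 CPM (log2 -1.64 ± 0.15, adjusted p = 2.4e-09). Tlr6, the paralog of Tlr1, was also lower, at 19.7 ± 1.42 and 42.2 ± 3.32 CPM (log2 -1.07 ± 0.09, adjusted p = 1.2e-10). Of 8 chaperones and accessory proteins, 3 were higher and 2 lower, with Ly86 (MD-1, the partner of RP105) at log2 0.56 ± 0.07 and the lipopolysaccharide-binding protein gene Lbp at log2 -0.81 ± 0.20. Of 4 other TIR-domain adaptors tested, 3 were lower, led by Pik3ap1 (BCAP) at log2 -1.47 ± 0.05 and Ticam2 (TRAM) at -0.46 ± 0.10. Of 15 kinases, ligases and IRFs downstream, 5 were higher and 8 lower, with Traf3 at log2 -1.25 ± 0.06 and Irak2 at -0.97 ± 0.05. Of 7 negative regulators, 4 were lower and none was higher, with Irak3 (IRAK-M) at log2 -1.16 ± 0.07 and Nfkbia (IkappaB-alpha) at -0.48 ± 0.05. The median log2 changes of these lists were -0.53 for the other receptors, 0.06 for the chaperones, -0.43 for the adaptors, -0.27 for the downstream genes and -0.20 for the negative regulators, against 0.004 over all genes tested.

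EGFP+ IMs were compared with EGFP- IMs of bleomycin-treated knock-in mice at day 7 to ask how Spp1 reporter-positive cells differ. Most members were lower in EGFP+ cells, namely Tlr1, Tlr4, Cd14, Tlr9, Tlr13 and Myd88, while Tlr7 and Tlr8 were higher. In all, 17.2% of 14967 genes were called higher and 17.6% lower, and the members' median log2 difference was -0.36, against -0.02 over all genes tested. Tlr8 had 50.1, 59.8 and 72.6 CPM in EGFP+ IMs, against 36.2, 35.4 and 29.6 CPM in EGFP- IMs (log2 0.84 ± 0.14, edgeR adjusted p = 0.00094). Tlr9 had 19.4, 15.7 and 17.5 CPM in EGFP+ IMs, against 42.4, 40.2 and 36.4 CPM in EGFP- IMs (log2 -1.19 ± 0.31, adjusted p = 0.0169). Myd88 had 158, 128 and 140 CPM in EGFP+ IMs, against 209, 225 and 231 CPM in EGFP- IMs (log2 -0.65 ± 0.10, adjusted p = 0.00072). The groups of these 3 genes did not overlap.

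Not all of these calls held when a library was left out. Tlr1 was at log2 -0.42 ± 0.11 (edgeR adjusted p = 0.00903), Tlr4 at -0.36 ± 0.10 (adjusted p = 0.0119), Cd14 at -0.43 ± 0.13 (adjusted p = 0.0202) and Tlr13 at -0.36 ± 0.12 (adjusted p = 0.0347). Tlr7 averaged 82.4 ± 5.38 CPM in EGFP+ IMs and 64.4 ± 6.35 CPM in EGFP- IMs (log2 0.35 ± 0.13, adjusted p = 0.0495). Tlr2 (log2 -0.26 ± 0.17, adjusted p = 0.255) and Ly96 (0.12 ± 0.23, adjusted p = 0.714) were not called. The Tlr2 groups did not overlap, and Tlr2 was called lower in EGFP+ IMs when only these 2 groups were fitted (log2 -0.21, adjusted p = 0.0108). The call of Tlr7 was lost without any of the 6 libraries (adjusted p from 0.0653 to 0.187) and in both DESeq2 alternatives. That of Tlr13 was lost without any of the 6 as well (adjusted p from 0.0501 to 0.128). That of Cd14 was lost without EGFP+ replicate 2 or 3 or EGFP- replicate 2 or 3 (adjusted p from 0.0857 to 0.0985), and that of Tlr4 without EGFP+ replicate 2 (adjusted p = 0.0671). That of Tlr9 was lost without EGFP+ replicate 2 or 3 or EGFP- replicate 1 (adjusted p from 0.0509 to 0.0697), and with no filter on low counts (adjusted p = 0.0877). Of the 6 members called lower, 2 were called without EGFP+ replicate 2 and 3 without EGFP+ replicate 3.

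All 10 neutrophil markers were lower in EGFP+ IMs, with sums of 1967 to 2746 CPM against 4536 to 6203 CPM in EGFP- IMs, and 5 of 7 macrophage markers were higher. Also lower were 4 of 8 dendritic cell, 3 of 8 nonclassical monocyte and 3 of 6 classical monocyte markers, with none higher. Of 8 alveolar macrophage markers, 5 were higher and none was lower. Cxcr2 averaged 126 ± 24.6 CPM in EGFP+ IMs and 310 ± 14.8 CPM in EGFP- IMs. Of 9 dissociation stress genes, 4 were lower and none higher, with sums of 4968 to 5337 CPM in EGFP+ IMs, against 5854 to 6042 CPM in EGFP- IMs. The part of these markers in the members' differences was not tested. Spp1 itself averaged 4027 ± 590 CPM in EGFP+ IMs and 523 ± 68.6 CPM in EGFP- IMs. Over all genes tested, 17.2% were called higher in EGFP+ IMs and 17.6% lower. Of 39 other pathway genes, 3 were higher and 18 lower. Those higher were Tlr3 (log2 0.85 ± 0.17), Cd180 (RP105, 0.42 ± 0.10) and Hsp90b1 (gp96, the chaperone of Toll-like receptors, 0.35 ± 0.10). Those lower included 10 of 15 kinases, ligases and IRFs, led by Irf7 at log2 -0.98 ± 0.24 and Irak2 at -0.77 ± 0.13, and 5 of 7 negative regulators, led by Il1rl1 at -0.88 ± 0.16 and Irak3 at -0.75 ± 0.10. Tlr6, the other partner of TLR2, was at log2 -0.74 ± 0.12, and of 4 adaptors 2 were lower, Pik3ap1 at -0.82 ± 0.10 and Tirap at -0.64 ± 0.14. The median log2 differences were -0.43 for the other receptors, 0.07 for the chaperones, -0.41 for the adaptors, -0.42 for the downstream genes and -0.54 for the negative regulators, against -0.02 over all genes tested.

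Between day 14 and day 7, EGFP+ IMs held more Tlr7 and Tlr8 RNA and less Tlr4, with the other 7 members not called. These 2 groups come from different count tables, so that table and day cannot be told apart. Here 25.3% of 14967 genes were called higher and 26.9% lower (3781 and 4025 genes, against 2063 and 5367 without TMM factors). The members' median log2 change was -0.002, against -0.005 over all genes tested. Tlr8 had 86.1, 108 and 94.5 CPM at day 14, against 50.1, 59.8 and 72.6 CPM at day 7 (log2 0.66 ± 0.14, edgeR adjusted p = 0.00185). Tlr7 had 136, 116 and 95.1 CPM at day 14, against 77.3, 82.0 and 88 CPM at day 7 (log2 0.49 ± 0.12, adjusted p = 0.00619), and its call was lost without TMM factors (adjusted p = 0.153). Tlr4 had 71.4, 71.3 and 58.0 CPM at day 14, against 102, 90.8 and 96.5 CPM at day 7 (log2 -0.53 ± 0.10, adjusted p = 0.00075). The groups did not overlap in these 3 genes.

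Among the members not called at day 14, Tlr2 had 678, 1059 and 1182 CPM at day 14, against 1099, 1054 and 991 CPM at day 7 (log2 -0.11 ± 0.17, edgeR adjusted p = 0.61). The low value was replicate 1, the library that stood apart. Without it, Myd88 (log2 -0.33, adjusted p = 0.00931) and Tlr13 (-0.36, adjusted p = 0.00987) were also called lower, which makes 3 members. Myd88 was called as well without day 7 replicate 2 (adjusted p = 0.0457). All 10 neutrophil markers were lower at day 14, with sums of 142 to 245 CPM at day 14 and 1967 to 2746 CPM at day 7, and 7 of 7 macrophage markers were higher. Of 9 dissociation stress genes, 4 were lower and 1 higher at day 14, and the part of these markers was not tested. Over all genes tested, 25.3% were called higher at day 14 and 26.9% lower. Of 39 other pathway genes, 7 were higher and 16 lower. Ly86 (log2 1.63 ± 0.33) and the endosomal trafficking chaperone Unc93b1 (0.79 ± 0.22) were higher, as was Ticam2 (0.55 ± 0.13), while Irf7 (-1.65 ± 0.24), Irak2 (-1.21 ± 0.13), Tnfaip3 (A20, -1.06 ± 0.11), Irak3 (-0.98 ± 0.10), Tlr6 (-0.92 ± 0.12) and Tirap (-0.77 ± 0.15) were lower. The list medians ran from -0.84 for the other receptors to 0.27 for the chaperones, against -0.005 over all genes tested.

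**Figure D2:**
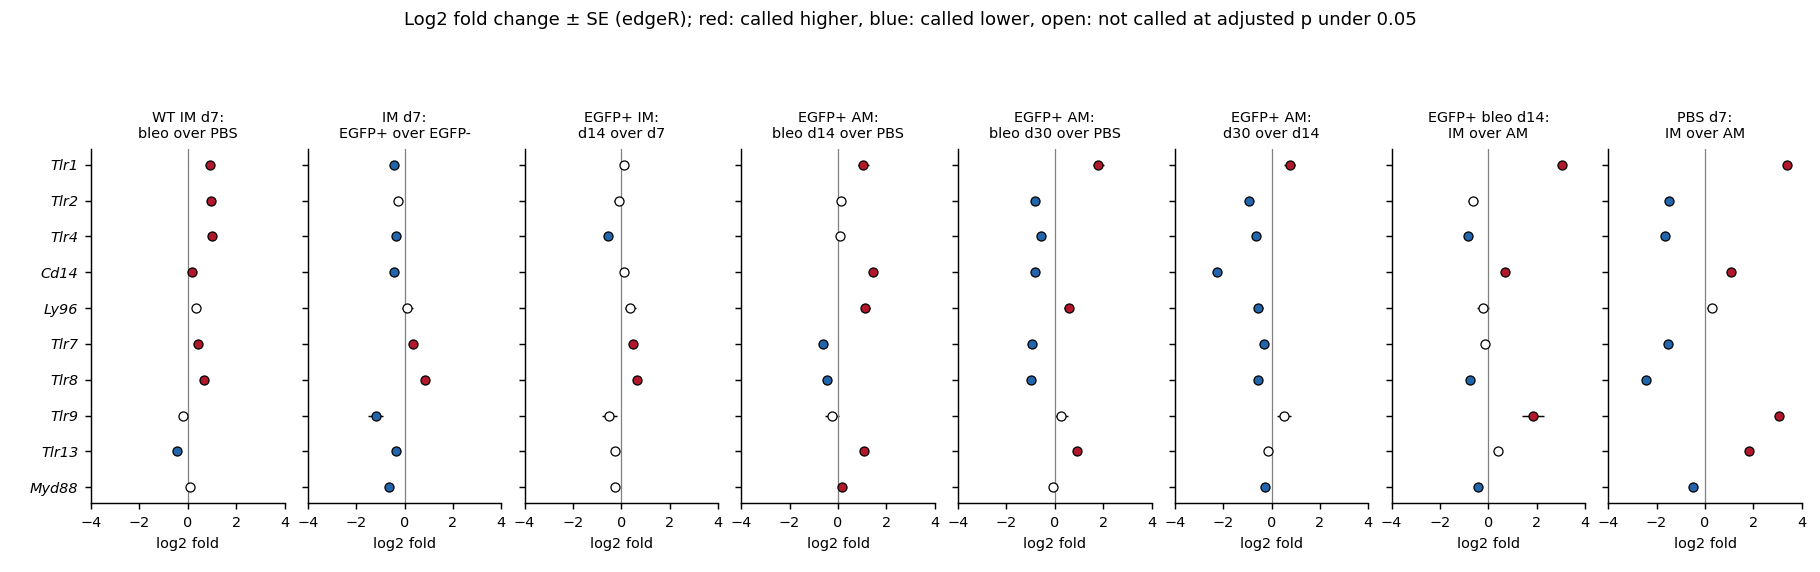
Log2 fold change with its SE for each of the 10 genes in 8 comparisons of 3 against 3 libraries, from edgeR, with genes down the page and 1 panel per comparison. Red points were called higher and blue points lower at an adjusted p under 0.05, and open points were not called. Tlr1 and Tlr9 lie far to the right in IMs over AMs after PBS (3.38 and 3.04) and Cd14 far to the left in day 30 over day 14 AMs (-2.27).

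Of the 10 genes in the 3 AM groups, Cd14 had the largest called difference, being high at day 14 and low at day 30. The PBS AMs are in a different count table from the day 14 and day 30 AMs, so table and treatment cannot be told apart against PBS, while day 30 and day 14 are in the same table. Cd14 had 926, 856 and 932 CPM after PBS, 2685, 2267 and 2578 CPM at day 14 and 500, 520 and 533 CPM at day 30. No library of one group overlapped another group. Cd14 was higher at day 14 than after PBS by log2 1.46 ± 0.08 (2.76-fold, edgeR adjusted p = 1.1e-10) and lower at day 30 than after PBS, at log2 -0.80 ± 0.08 (adjusted p = 2.2e-07). Within one table it was 4.81-fold lower at day 30 than at day 14 (log2 -2.27 ± 0.08, adjusted p = 2.9e-12). The comparisons with PBS share the PBS libraries, and the one between days shares its libraries with each of them.

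At day 14, 5 members were higher than in PBS AMs and 2 were lower, where 27.3% of 14706 genes were called higher and 27.6% lower (4008 and 4060 genes, against 2641 and 5570 without TMM factors). The members' median log2 change was 0.15, against -0.01 over all genes tested. The 5 higher were Tlr1, Cd14, Ly96, Tlr13 and Myd88. At day 30, Tlr1, Ly96 and Tlr13 were higher than in PBS AMs and Tlr2, Tlr4, Cd14, Tlr7 and Tlr8 lower, where 24.8% of genes were called higher and 23.1% lower (3649 and 3401 genes, against 2800 and 4365 without TMM factors), and the medians were -0.33 over the members and 0.02 over all genes tested. From day 14 to day 30, Tlr1 alone of the 10 was called higher and 7 were called lower, where 19.6% of genes were called higher and 18.7% lower (2887 and 2753 genes, against 3409 and 2052 without TMM factors), with medians of -0.43 and 0.01. Without day 14 replicate 2, Tlr9 was also called higher at day 30 than at day 14 (log2 0.82, edgeR adjusted p = 0.0378), which makes 2 members.

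Tlr13 and Tlr1 were higher at both times. Tlr13 had 61.2, 59.3 and 59.5 CPM in PBS AMs, 136, 128 and 114 CPM at day 14 and 114, 116 and 113 CPM at day 30. Both groups after bleomycin were above every PBS library, at log2 1.06 ± 0.08 (edgeR adjusted p = 7.8e-09) and 0.93 ± 0.08 (adjusted p = 4.4e-08), and the 2 times overlapped (adjusted p = 0.199), although without day 14 replicate 3 day 30 was called lower (log2 -0.20, adjusted p = 0.0445). Tlr1 was low in this gate, with 1.66, 1.64 and 2.82 CPM in PBS AMs, 4.12, 4.34 and 4.12 CPM at day 14 and 7.36, 7.24 and 6.45 CPM at day 30. Each step was without overlap, at log2 1.05 ± 0.24 for day 14 over PBS (adjusted p = 0.00126) and 0.75 ± 0.22 for day 30 over day 14 (adjusted p = 0.0131).

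Tlr7 and Tlr8 were lower at both times. Tlr7 had 200, 198 and 197 CPM in PBS AMs, 144, 134 and 113 CPM at day 14 and 106, 97.0 and 109 CPM at day 30. Tlr8 had 228, 223 and 219 CPM in PBS AMs, 149, 191 and 154 CPM at day 14 and 122, 108 and 105 CPM at day 30. Every bleomycin library was below every PBS library, with log2 changes of -0.62 ± 0.09 (Tlr7, edgeR adjusted p = 1.6e-05) and -0.45 ± 0.09 (Tlr8, adjusted p = 0.00058) at day 14 and -0.93 ± 0.09 (Tlr7, adjusted p = 1.8e-07) and -1.0 ± 0.09 (Tlr8, adjusted p = 1.5e-07) at day 30. Both were also lower at day 30 than at day 14, Tlr8 at log2 -0.55 ± 0.09 (adjusted p = 0.00023) and Tlr7 at -0.31 ± 0.09 (adjusted p = 0.0109), and the call of Tlr7 was lost without day 30 replicate 2 (adjusted p = 0.0622).

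The surface receptors Tlr2 and Tlr4 were near their PBS level at day 14 and below it at day 30. Tlr2 had 1395, 1353 and 1391 CPM in PBS AMs, 1371, 1509 and 1664 CPM at day 14 and 788, 780 and 781 CPM at day 30. Day 14 overlapped PBS (log2 0.13 ± 0.08, edgeR adjusted p = 0.165), with a call without day 14 replicate 1 (log2 0.20, adjusted p = 0.013), and day 30 lay below both, at log2 -0.82 ± 0.08 from PBS (adjusted p = 1.5e-07) and -0.94 ± 0.08 from day 14 (adjusted p = 7.9e-08). Tlr4 averaged 113 ± 5.0 CPM in PBS AMs, 121 ± 10.4 CPM at day 14 and 76.4 ± 2.1 CPM at day 30, with log2 changes of 0.09 ± 0.08 (day 14 from PBS, adjusted p = 0.326), -0.56 ± 0.08 (day 30 from PBS, adjusted p = 1.8e-05) and -0.66 ± 0.08 (day 30 from day 14, adjusted p = 7.9e-06).

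Ly96, whose product holds lipopolysaccharide on TLR4, averaged 4.01 ± 0.326 CPM in PBS AMs, 8.82 ± 1.71 CPM at day 14 and 6.00 ± 0.773 CPM at day 30. It was higher at day 14 by log2 1.13 ± 0.19 (edgeR adjusted p = 7.7e-05). Its smaller changes, 0.58 ± 0.19 for day 30 from PBS (adjusted p = 0.0179) and -0.55 ± 0.19 for day 30 from day 14 (adjusted p = 0.0281), each lost their call when some libraries were left out (adjusted p up to 0.0708 and 0.138). Myd88 averaged 140 ± 2.53 CPM in PBS AMs, 160 ± 8.40 CPM at day 14 and 132 ± 1.54 CPM at day 30. Its call at day 14 (log2 0.18 ± 0.07, adjusted p = 0.0381) turned to log2 -0.01 without TMM factors (adjusted p = 0.952), and it was lost without 5 of the 6 libraries of the 2 groups. At day 30 it was not called against PBS (adjusted p = 0.293), but was lower without TMM factors (log2 -0.21, adjusted p = 0.018). Its decrease between day 14 and day 30 was called within one table (log2 -0.27 ± 0.07, adjusted p = 0.00583). Tlr9 was low in all 3 AM groups, from 2.1 to 5.75 CPM, and was not called in any of these comparisons (adjusted p of 0.49, 0.43 and 0.172).

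Markers of other cells moved in AMs as well. All 8 B cell markers were lower at day 14 than after PBS, with sums of 100 to 133 CPM at day 14 and 267 to 285 CPM after PBS. Between day 14 and day 30, 8 of 9 neutrophil markers tested, all 8 B cell markers and 5 of 7 endothelial and fibroblast markers were higher at day 30, the neutrophil sum being 530 to 620 CPM at day 30 and 95.7 to 119 CPM at day 14, when Ly6g and Camp were at 0. Cxcr2 averaged 7.80 ± 0.499 CPM in PBS AMs, 3.33 ± 1.64 CPM at day 14 and 27.2 ± 1.66 CPM at day 30. Of 8 alveolar macrophage markers, 1 was higher and 3 including Siglecf were lower at day 14 than after PBS. At day 30, 2 were higher and 2 including Siglecf lower than after PBS. Between day 14 and day 30, 2 were higher and 1 lower at day 30. Compared with PBS, 1 of 9 neutrophil markers tested was higher and 7 were lower at day 14. At day 30, 6 were higher and none was lower. Of 6 interstitial macrophage markers, 5 were higher at day 14 and all 6 at day 30, compared with PBS. Of 7 macrophage markers, 6 were higher and 1 lower at day 14, and 5 higher and 1 lower at day 30, compared with PBS. From day 14 to day 30, 2 of them were higher and 5 lower. Genes of dissociation stress also moved, with 2 of 9 higher and 6 lower at day 14 and 4 higher and 2 lower at day 30, compared with PBS, and 5 higher and 3 lower at day 30 compared with day 14. Their sum ran from 3975 to 4196 CPM after PBS, from 3682 to 5003 CPM at day 14 and from 7348 to 7541 CPM at day 30. The part of these markers in the members' changes was not tested.

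Of 39 other pathway genes in AMs, 15 were higher and 10 lower at day 14 than after PBS. At day 30, 15 were higher and 12 lower than after PBS. Over all genes tested, 27.3% were called higher and 27.6% lower at day 14, and 24.8% and 23.1% at day 30. Tlr5 was far lower, averaging 26.4 ± 3.17 CPM in PBS AMs, 0.735 ± 0.189 CPM at day 14 and 3.53 ± 0.476 CPM at day 30 (log2 -5.16 ± 0.21 at day 14, edgeR adjusted p = 2.6e-12, and -2.90 ± 0.16 at day 30, adjusted p = 1.8e-10). Tlr3 was higher at both times (log2 1.0 ± 0.12 and 1.08 ± 0.12). The RP105 complex genes were higher at both times, Ly86 at log2 1.68 ± 0.12 and 1.39 ± 0.12 and Cd180 at 1.32 ± 0.11 and 1.04 ± 0.11, within a list of 8 chaperones and accessory proteins of which 5 were higher and 2 lower at each time. Among 15 downstream genes, 5 were higher and 3 lower at day 14 and 4 higher and 6 lower at day 30. Irf7 was at log2 1.23 ± 0.20 at day 14 and 0.88 ± 0.20 at day 30, Traf3 at -0.59 ± 0.12 and -0.71 ± 0.12 at those times, and Tab1 at 0.36 ± 0.14 and 0.88 ± 0.13. Of 4 adaptors, Ticam2 was higher at both times (0.61 ± 0.10 and 0.32 ± 0.10), Tirap was lower at both times (-0.45 ± 0.12 at each) and Ticam1 (TRIF) was lower at day 14 (-0.55 ± 0.17), with 0.04 ± 0.16 at day 30 (adjusted p = 0.868). Of 7 negative regulators, 2 were higher and 2 lower at each time, with Rnf216 at -0.34 ± 0.10 at day 14 and -0.44 ± 0.10 at day 30, and Il1rl1 at 1.04 ± 0.25 and 1.72 ± 0.24. Irak3 was lower at day 14 (-0.33 ± 0.10), with -0.01 ± 0.09 at day 30 (adjusted p = 0.967). The list medians ran from -0.30 (adaptors) to 0.57 (chaperones) at day 14 and from -0.08 (negative regulators) to 1.08 (other receptors) at day 30, against -0.01 and 0.02 over all genes tested.

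Between the 2 times in AMs, 19.6% of all genes tested were called higher at day 30 and 18.7% lower. Of 39 other pathway genes, 9 were higher at day 30 and 9 lower, near those shares. Higher were Ticam1 (log2 0.58 ± 0.17), Pik3ap1 (0.31 ± 0.09), Tab1 (0.52 ± 0.13) and Il1rl1 (0.68 ± 0.23), and lower were Tlr6 (-0.50 ± 0.15), the lysosomal transporter gene Slc15a3 (-0.43 ± 0.09), Hsp90b1 (-0.30 ± 0.08), Tbk1 (-0.37 ± 0.08) and Nfkbia (-0.48 ± 0.07). Between the gates at day 14, 10.8% of all genes tested were called higher in IMs and 10.2% lower. Of 37 other pathway genes tested there, 7 were higher in IMs and 2 lower. Higher were Ly86 (log2 2.0 ± 0.37), Cd180 (0.87 ± 0.12), Irf5 (0.96 ± 0.15), Il1rl1 (1.24 ± 0.26) and Irak3 (0.53 ± 0.14), and lower were Pik3ap1 (-1.23 ± 0.15) and Tlr3 (-0.65 ± 0.16). Between the gates after PBS, 39.2% of all genes tested were called higher in IMs and 39.7% lower. Of 39 other pathway genes there, 23 were higher in IMs and 10 lower. Named by size within each list were Lbp (log2 4.10 ± 0.29), Irf7 (3.6 ± 0.12), Il1rl1 (2.85 ± 0.17), Ly86 (2.57 ± 0.10), Irf5 (1.96 ± 0.05), Tlr6 (1.87 ± 0.09) and Sigirr (1.82 ± 0.20) among those higher, and Tlr3 (-1.69 ± 0.22), Tirap (-0.36 ± 0.09) and Pik3ap1 (-0.33 ± 0.06) among those lower. The largest list median there was 1.79 (other receptors) and the lowest -0.17 (adaptors), against -0.01 over all genes tested.

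The bleomycin effect in IMs at day 7 and that in AMs at day 14 were set against each other, with day, genotype, EGFP sort, sex-linked RNA and count table differing along with the gate. The effect was more positive in IMs for Tlr2, Tlr4, Tlr7 and Tlr8, and less positive for Cd14, Ly96 and Tlr13. Over all genes 21.6% of 16687 differed in the higher direction and 17.5% in the lower (3598 and 2916 genes, against 5650 and 1878 without TMM factors). The members' median was -0.05 and that of all genes 0.08. Tlr13 was lower after bleomycin in IMs (log2 -0.46 ± 0.06) and higher in AMs (1.06 ± 0.08), a difference of -1.55 ± 0.13 (edgeR adjusted p = 3.3e-10). Tlr7 and Tlr8 did the opposite, higher in IMs and lower in AMs, with differences of 1.0 ± 0.15 (adjusted p = 4.0e-06) and 1.08 ± 0.16 (adjusted p = 5.7e-06). Of 39 other pathway genes, 4 differed in the higher direction and 19 in the lower.

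**Figure D3:**
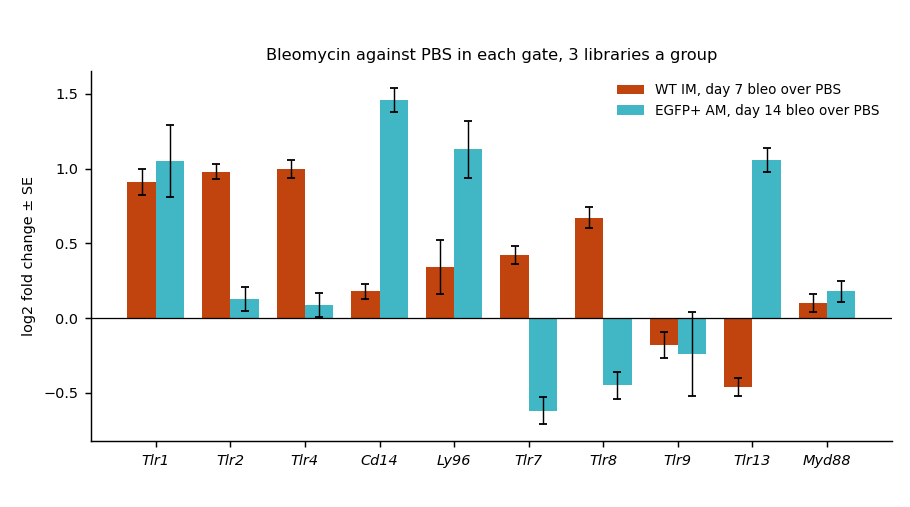
Log2 fold change of bleomycin over PBS with its SE for each gene, in wild-type IMs at day 7 (orange-brown) and EGFP+ AMs at day 14 (light blue), 3 libraries per group. Tlr7, Tlr8 and Tlr13 have bars of opposite sign in the 2 gates, and Tlr2 and Tlr4 rose by 0.98 and 1.0 in IMs beside 0.13 and 0.09 in AMs, which were not called.

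Surface and endosomal receptors were also set against each other within each library, as the summed CPM per kb of Tlr1, Tlr2 and Tlr4 over that of Tlr7, Tlr8, Tlr9 and Tlr13, as a description with no test. Surface RNA exceeded endosomal RNA in all 24 libraries. The ratio was 4.01, 4.17 and 3.96 in wild-type IMs after bleomycin, against 2.13, 1.87 and 2.0 after PBS, and the groups did not overlap. The surface sum was 347 ± 8.84 CPM per kb after bleomycin and 179 ± 8.12 after PBS, while the endosomal sum was 85.8 ± 2.08 after bleomycin and 89.6 ± 4.84 after PBS (SD, n = 3 each), so the ratio moved with the surface receptors.

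Tlr2 made up most of that sum, and so the ratio follows Tlr2 closely. Its share of the 7 receptors was 74.5% in wild-type IMs after bleomycin and 61.8% after PBS, while that of Tlr13 was 8.39% after bleomycin and 18.9% after PBS. On the log2 scale the ratio averaged 1.79 ± 0.50 in EGFP+ IMs at day 14, 2.09 ± 0.10 in EGFP+ IMs at day 7 and 2.24 ± 0.09 in EGFP- IMs at day 7. The wide day 14 spread comes from values of 1.27, 1.84 and 2.27 in its replicates, the lowest in the library that stood apart. In AMs the log2 ratio averaged 1.92 ± 0.02 after PBS, 2.28 ± 0.23 at day 14 and 1.70 ± 0.04 at day 30. The endosomal sum in AMs was lower at day 14, at 108 ± 9.52 CPM per kb, than after PBS, at 126 ± 1.76 CPM per kb. The mean surface sum was higher, at 526 ± 47.3 CPM per kb at day 14 and 479 ± 7.47 after PBS, with overlap between libraries. At day 30 both sums were below PBS, with 276 ± 1.67 CPM per kb for the surface receptors and 84.7 ± 2.69 for the endosomal ones.

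**Figure D4:**
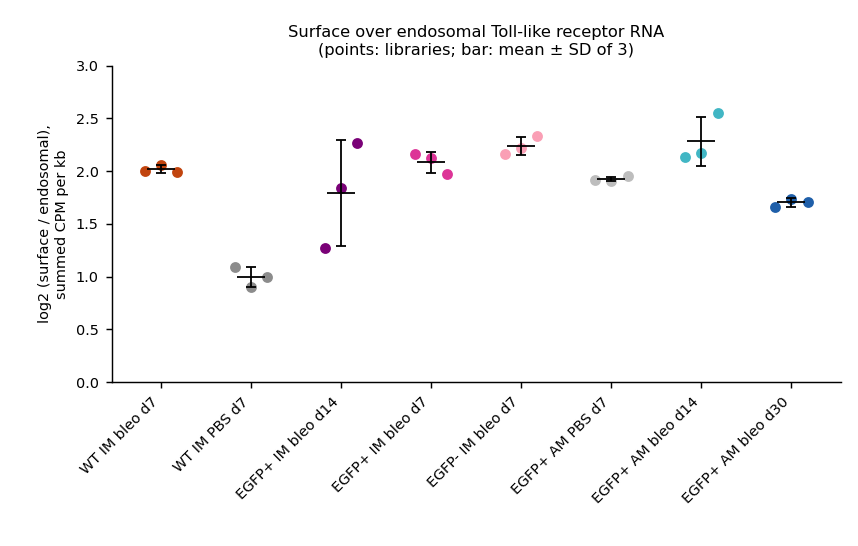
Log2 ratio of summed surface to summed endosomal receptor level (CPM per kb) in every library, with the group mean ± SD of 3. Wild-type IMs after PBS are lowest at 1.0 ± 0.10, below every other library.

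The endosomal part itself had a different make-up in each gate. Tlr13 was its largest part in all 5 IM groups, with 8.39% to 18.9% of the 7 receptors, and in AMs its share was 2.31% after PBS, 4.65% at day 14 and 7.36% at day 30. Tlr8 was the largest endosomal part in all 3 AM groups, at 10.3% after PBS, 7.25% at day 14 and 8.65% at day 30. At day 30 this rests on the length scaling. In CPM, Tlr8 at 112 ± 9.23 and Tlr13 at 114 ± 1.41 overlapped there. Tlr9 held 0.777% to 3.64% over the IM groups and 0.157% to 0.393% over the AM groups. Tlr1 held 2.07% to 2.71% over the IM groups and 0.101% to 0.582% over the AM groups.

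**Figure D5:**
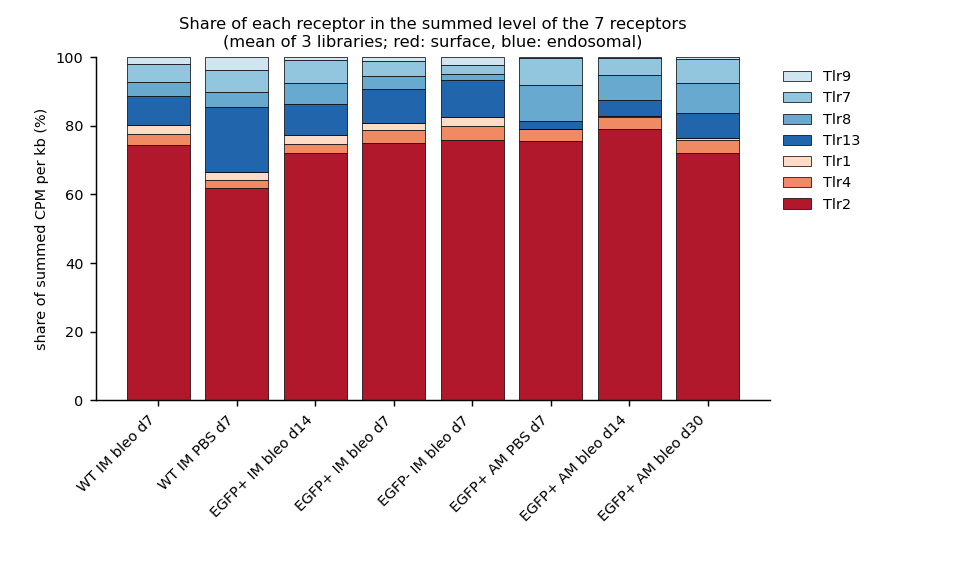
Share of each of 7 Toll-like receptors in their summed CPM per kb, as the mean of 3 libraries per group, with surface receptors in red and endosomal receptors in blue. Tlr2 takes 61.8% to 79.2% of each bar, Tlr13 is the largest blue part in the IM groups and Tlr8 in the AM groups.

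Likeness among the members is given as Pearson r of log2(CPM + 1) over the 8 group means, which rest on the same libraries as the comparisons above. Tlr7 and Tlr8 had r = 0.97, and Tlr13 ran against them at -0.94 and -0.92. Tlr2 and Tlr4 had r = 0.94, while Tlr1 was at -0.33 with Tlr2, its partner in lipopeptide sensing. Tlr1 was at 0.88 with Tlr9 and 0.87 with Tlr13. Among 9326 genes with at least 10 CPM in some group, those nearest to Tlr1 were Stab1 (0.994), Ccl2 (0.989) and Maf (0.986), and those nearest to Tlr9 were Arid5a (0.996), Fgfr1 (0.993) and Atp8b2 (0.989). Nearest to Tlr8 were Ift122 (0.991), Hsd17b4 (0.987) and Gpr155 (0.983), nearest to Tlr7 Coro1b (0.984), Hsd17b4 (0.983) and Tdrd3 (0.982), and nearest to Tlr13 Hp (0.985), Slc2a1 (0.977) and Pcgf5 (0.976). For Tlr2 these were Gnl3l (0.962), Bcl2a1d (0.956) and Vdr (0.943), for Tlr4 Gnaq (0.964), Vdr (0.938) and Ski (0.936), and for Cd14 Rap2a (0.976), Lsm12 (0.975) and Rbm3 (0.965). For Ly96 they were Bbip1 (0.976), Sf3b6 (0.962) and Mtr (0.957), and for Myd88 Gca (0.972), Numb (0.970) and Ublcp1 (0.969). These are descriptions over 8 points from 2 gates and say nothing of shared control.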

How the data were processed

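RNA from 24 sorted-macrophage libraries, in 8 groups of 3, was sequenced as 150-base paired-end reads. Per the submitters' processing notes, reads were processed with FastQC 0.11.5, Trimmomatic 0.38, HISAT2 2.1.0, SAMtools and featureCounts 1.6.3 on GRCm38; the annotation release and strand setting are not given in the sources used here. The deposited values are whole-number gene counts with no normalization, in 2 tables of 49585 and 55487 genes; 3 columns that match no sample's labels were not used. The 49022 genes in both tables hold at least 99.486% of each library, and 90.8% of them have the same gene model in both, so comparisons across tables also compare tables.

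Counts were tested with edgeR 4.0.16 (robust quasi-likelihood fit, TMM factors, filterByExpr, group as the only term, Benjamini-Hochberg over all genes tested). SE is the size of the log2 fold change over the root of F. Levels are TMM-scaled CPM, divided by exon length where given per kb. The fit was tested on simulated data. The 10 members, the pathway lists and the marker lists were chosen with earlier results of these data known. From each pathway list, the 2 called genes with the largest absolute change and at least 5 CPM in the higher group were named in each comparison. Genes of like pattern are the 3 highest by Pearson r per member among protein-coding genes with at least 10 CPM in some group. Alternatives were other size factors, DESeq2 1.42.0, no filter, other sets of libraries in the fit, a replicate block, each library left out, and, chosen after seeing the data, no scaling factors. Total counts of 13450053 to 24580620 per library set the precision.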

Additional observations from a re-analysis of the deposited data

Results flagged for a closer look

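The effect of bleomycin differed between the gates in 7 of the 10 genes, by a test of the difference itself (edgeR, 3 libraries per group, adjusted over all genes). Over all 16687 genes tested, 21.6% differed in the higher direction and 17.5% in the lower. The difference is the log2 change in wild-type IMs at day 7 minus that in EGFP+ AMs at day 14. It was 0.82 ± 0.17 (SE) for Tlr2 (adjusted p = 0.00028) and 0.87 ± 0.11 for Tlr4 (adjusted p = 5.9e-07). It was 1.0 ± 0.15 for Tlr7 (adjusted p = 4.0e-06) and 1.08 ± 0.16 for Tlr8 (adjusted p = 5.7e-06). It was -1.32 ± 0.12 for Cd14 (adjusted p = 2.5e-09) and -1.55 ± 0.13 for Tlr13 (adjusted p = 3.3e-10). For Ly96 it was -0.82 ± 0.29 (adjusted p = 0.0241), and that call was lost without 7 of the 12 libraries in turn, with adjusted p up to 0.14. Day, genotype, EGFP sort, count table and sex-linked RNA differed along with the gate, and these cannot be told apart.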

How the results depend on the processing

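With 3 libraries per group, low genes (Ly96 everywhere, Tlr1 and Tlr9 in AMs) rest on few reads. Leaving out 1 library at a time kept direction and side of the threshold in 538 of 600 tests of a member, gained a call in 11 and lost one in 51. The cause of the changes below was not tested.

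Without scaling factors, Myd88 in day 14 AMs against PBS AMs turned to -0.01 (adjusted p = 0.952), and 8 other calls were lost and 5 gained. The same setting called 2063 genes higher in day 14 against day 7 IMs, 2641 higher in day 14 against PBS AMs, and 5650 higher and 1878 lower in the difference between gates. In day 14 against day 7 IMs it called 1 member higher and 3 lower; 3 were also called lower with no filter and with all 24 libraries in one fit, and 2 with DESeq2's size factors, its Wald test or same-model genes. EGFP+ against EGFP- IMs had 1 member called higher under DESeq2's size factors, its Wald test and no scaling, and 4064 genes called higher with only the 2 groups in the fit. IMs against AMs at day 14 had 2937 genes higher and 2969 lower with all 24 libraries in one fit. Cd14 has no value with same-model genes.

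Leaving out 1 library gave 1 to 2 members lower in wild-type IMs and 1 to 3 lower in day 14 against day 7 IMs. EGFP+ against EGFP- IMs gave 1 member higher each time, 2 to 5 lower, 1670 to 2107 genes higher and 1610 to 2114 lower. Day 30 against day 14 AMs gave 1 to 2 members higher. IMs against AMs at day 14 gave 1 to 3 members higher and 868 to 1529 genes lower.

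Without length scaling, the log2 surface to endosomal ratio averaged 1.65 in wild-type IMs after bleomycin and 0.61 after PBS, 1.71 in EGFP+ and 1.86 in EGFP- IMs at day 7, and 1.62, 1.95 and 1.37 in AMs after PBS, at day 14 and at day 30.

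Replicate numbers were not used to pair the libraries in the main fits. Correlations of deviations between same-numbered libraries ran from -0.022 to 0.177 and were 0.177, 0.087 and 0.121 between the gates at day 14. All 6 libraries were most like their own number in day 14 against PBS AMs and in both gate comparisons. These low correlations do not settle whether same-numbered libraries belong together. With a replicate block in the edgeR fit, Tlr2 (-0.66, adjusted p = 0.00982) and Tlr13 (0.41, adjusted p = 0.0176) were called between gates at day 14. Myd88 (0.18, adjusted p = 0.059) was not called in day 14 against PBS AMs. The other 87 member results kept their side of the threshold, and those called kept their direction.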
